A study of Mus musculus with 6 samples.

Results

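The comparison described here sets Wt1 knockout (KO) mouse embryonic stem cells, induced with doxycycline (dox, 1 µg/ml) for 12 h, against untreated wild-type (WT) cells. Both are labelled strain 129/Ola, and both were kept on gelatin in medium with 10% fetal serum and LIF, the cytokine that holds mouse stem cells undifferentiated. Small RNA was sequenced, with 1 library on each side, so no difference between them has a replicate check, and each ratio below is a ratio between 2 libraries. The features measured were the 267 mature microRNA (miRNA) entries, of 1899 in all, with a mean of at least 50 uniquely matched reads over the 2 libraries. Libraries of untreated Wt1 KO cells and of Wt1 KO cells after 24 h of dox are set beside these for some miRNAs. WT and Wt1 KO libraries treated with retinoic acid (1 µM) enter only the scaling. The series title names Wt1 induction, but the labels do not say which transgene or clone was induced. Genotype, dox and any difference between cell lines therefore cannot be told apart. No dox-treated library of cells without an inducible Wt1 is used here, and the Wt1 message is not among the RNAs counted, so the genotype and the induction could not be verified from them.

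miRNAs are short RNAs that guide Argonaute proteins to messenger RNAs and lower the output of those messages. Pairing rests mainly on the seed, bases 2 to 8 of the mature miRNA, so miRNAs with the same seed are expected to share targets even when they come from different chromosomes. Each hairpin precursor can give a mature miRNA from its 5p and its 3p arm, and hairpins that lie close together are often cut from a shared transcript. In mouse embryonic stem cells the miR-290 cluster is the major miRNA cluster and promotes the rapid cell cycle, while let-7 accumulates as cells differentiate. Wt1 encodes a zinc finger transcription factor best known from kidney and gonad development.

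The sequences that carry the main contrasts are shown first, 5′ to 3′, as the deposited tables write them, with the seed in capitals. They are identical to RefSeq's mature sequences, whose positions are on GRCm38.p6. The first set shares the seed AAGTGCT, and its miR-290 cluster members (chromosome 7) and miR-302 cluster members (chromosome 3) lay on opposite sides of WT:
miR-291a-3p: aAAGTGCTtccactttgtgtgc
miR-294-3p: aAAGTGCTtcccttttgtgtgt
miR-295-3p: aAAGTGCTactacttttgagtct
miR-302d-3p: tAAGTGCTtccatgtttgagtgt
miR-302b-3p: tAAGTGCTtccatgttttagtag

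The second set lists one chromosome 17 cluster, in which every measured arm was lower after 12 h of dox than in WT (miR-99b-5p lies at chr17:17830194-17830215, let-7e-5p at chr17:17830366-17830387 and miR-125a-5p at chr17:17830817-17830840, all on the plus strand):
miR-99b-5p: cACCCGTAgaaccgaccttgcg
let-7e-5p: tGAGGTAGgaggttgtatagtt
miR-125a-5p: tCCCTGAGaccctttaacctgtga

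The third set pairs relatives with the same seed from different chromosomes, of which the first named was far lower and the second was not (miR-181a from chromosomes 1 and 2 with miR-181c from 8, and miR-200b and miR-200a from 4 with miR-200c and miR-141 from 6):
miR-181a-5p: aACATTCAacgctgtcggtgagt
miR-181c-5p: aACATTCAacctgtcggtgagt
miR-200b-3p: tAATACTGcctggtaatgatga
miR-200c-3p: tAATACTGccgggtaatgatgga
miR-200a-3p: tAACACTGtctggtaacgatgt
miR-141-3p: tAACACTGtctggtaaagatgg

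The fourth set holds the 3 miRNAs with the highest ratios over WT and the 3 with the lowest:
miR-211-5p: tTCCCTTTgtcatcctttgcct
miR-1195: tGAGTTCGaggccagcctgctca
miR-5126: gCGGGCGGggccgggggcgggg
miR-501-3p: aATGCACCcgggcaaggatttg
miR-335-3p: tTTTTCATtattgctcctgacc
miR-224-5p: tAAGTCACtagtggttccgtt

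Uniquely matched reads came to 1227428 in the 12 h dox library and 1063945 in the WT library. Levels are given as normalised CPM, counts scaled per library by TMM, which sets the bulk of the miRNAs equal between libraries. A count of 3, the limit that a count of 0 allows, equals 2.65 CPM with dox and 2.75 CPM in WT. The 267 miRNAs held 99.6% of the reads of either library, and none of them was without a read in either. The median count was 271 with dox and 261 in WT. A miRNA is called higher or lower when its log2 ratio (12 h dox in Wt1 KO over WT) lies 1 or more from 0 on that side, with a 95% counting interval that leaves out 0. Brackets hold these intervals, which carry counting error alone: PCR copies of a molecule are not independent of each other.

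By this rule 35 miRNAs were higher in the 12 h dox library (13.1% of those measured) and 44 lower (16.5%), 79 in all (29.6%). The median ratio of all 267 was 0.05, with quartiles of -0.62 and 0.57, and 113 miRNAs lay within 0.5 of 0 on the log2 scale. The lower side reached farther: 19 miRNAs had a log2 ratio of -2 or less and 5 a ratio of 2 or more. The lower miRNAs together held 2.20% of the reads with dox [2.17 to 2.22] and 10.2% in WT [10.2 to 10.3]. The higher miRNAs together held 2.42% with dox [2.40 to 2.45] and 0.960% in WT [0.942 to 0.979] (Wilson 95% intervals). Of the 22 miRNAs with a mean of at least 10000 reads, none was higher and 2, miR-99b-5p and miR-125a-5p, were lower. Scaled to CPM of the total instead, all ratios shifted by -0.15, giving 25 calls above WT and 52 below it.

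**Figure D1:**
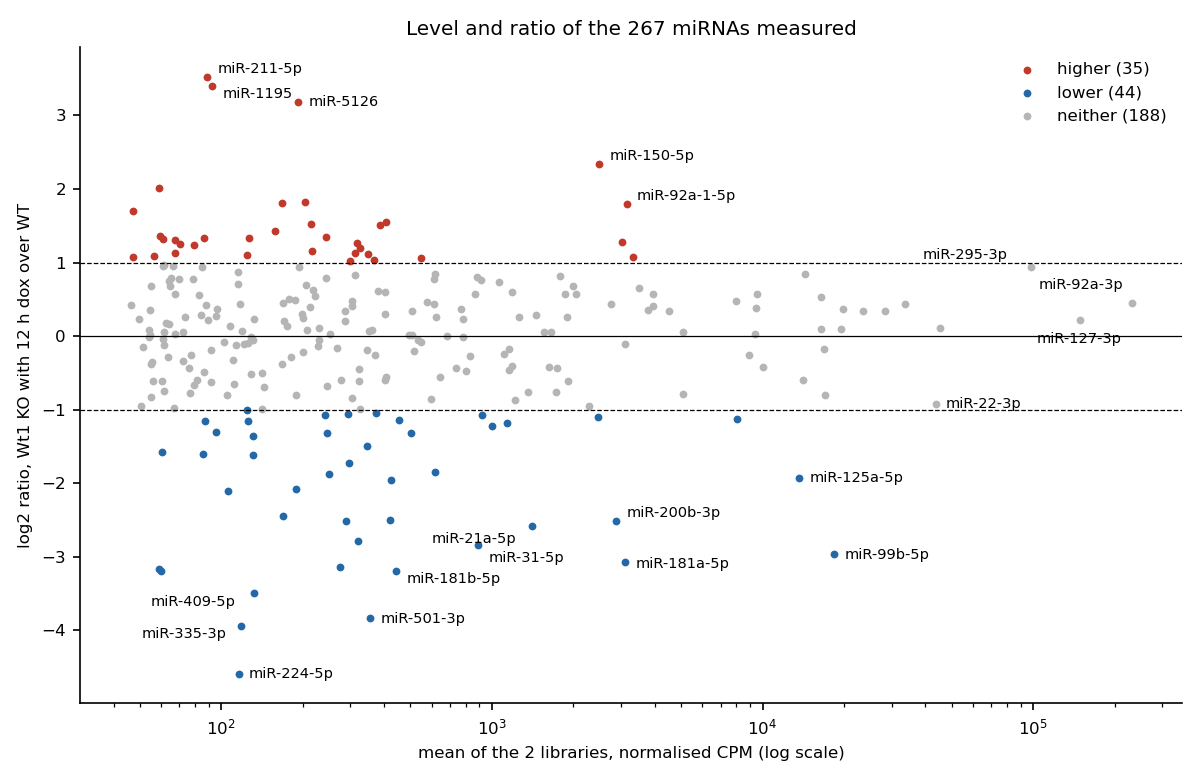
Each point is 1 of the 267 miRNAs, placed by its mean level over the 2 libraries (normalised CPM, log scale) and its log2 ratio of Wt1 KO with 12 h dox over WT, with dashed lines at 1 and -1. The 35 higher miRNAs (red) reach 3.53 and the 44 lower ones (blue) reach -4.59, while most abundant miRNAs lie between the dashed lines.

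Most of the abundant miRNAs lay close to WT. The 10 with the highest mean level held 71.3% of the reads with dox [71.2 to 71.4] and 62.8% in WT [62.7 to 62.9]. miR-92a-3p, the main product of the miR-17 to miR-92a cluster and its X-linked paralog, took 24.6% with dox [24.6 to 24.7] and 20.09% in WT [20.01 to 20.16], a log2 ratio of 0.45 [0.44 to 0.45]. miR-127-3p, from the imprinted Dlk1-Dio3 locus, took 14.8% with dox [14.7 to 14.9] and 14.2% in WT [14.1 to 14.2], a ratio of 0.21 [0.20 to 0.22]. The sensory cell miRNA miR-182-5p was at 0.11 [0.09 to 0.13] and miR-191-5p at 0.09 [0.06 to 0.12]. As CPM of the total these 2 ratios turn to -0.04 for miR-182-5p and -0.06 for miR-191-5p. The exceptions among the 10 were miR-295-3p, at 0.93 [0.92 to 0.95], and miR-22-3p, a miRNA of differentiated and mesenchymal cells, at -0.92 [-0.94 to -0.90]. Both fell just short of the size rule. Scaled to CPM of the total, miR-22-3p is called lower, at -1.07, while miR-295-3p moves farther from the rule. Across all miRNAs, 12 had a ratio of 0.9 to 1 in size and 12 a ratio of 1 to 1.1.

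The stem cell clusters had ratios on opposite sides of 0. Each of the miR-290 cluster's 13 measured arms had a positive ratio, and 5 were called higher, against 13.1% of all miRNAs, with a median of 0.84 against 0.05 over all. The cluster as a whole took 23.4% of the reads with dox [23.4 to 23.5] and 16.04% in WT [15.97 to 16.11], so the defining stem cell cluster was abundant on both sides. miR-291a-3p had 4515 CPM with dox and 2134 CPM in WT, a log2 ratio of 1.08 [1.01 to 1.15]. miR-290a-3p was at 1.12 [0.90 to 1.35], miR-291b-5p at 1.13 [0.62 to 1.67], miR-293-5p at 1.06 [0.88 to 1.23] and miR-294-5p at 1.04 [0.82 to 1.26]. The most abundant member, miR-295-3p, had 129249 CPM with dox and 67688 CPM in WT. These are small margins: as CPM of the total all 5 calls of the cluster are lost, and with multi-matched reads added miR-291b-5p falls to 0.48.

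miR-302 and its cluster, typical of primed rather than naive pluripotent cells, had negative ratios in all 3 measured members and 2 were called lower, against 16.5% of all miRNAs. miR-302d-3p had 137.8 CPM with dox and 455 CPM in WT, a ratio of -1.72 [-1.99 to -1.46]. miR-302a-3p was at -1.61 [-2.02 to -1.23], and miR-302b-3p at -0.78 [-1.25 to -0.32] did not pass the size rule. The ratios of miR-291a-3p and miR-302d-3p, which share the seed AAGTGCT, differed by 2.80 on the log2 scale [2.53 to 3.07]. Summed over the 6 measured miRNAs with this seed the ratio was 0.91 [0.90 to 0.93], and the rare miR-302 members add little to this sum. One other seed, AGGAGCT, held calls in both directions: miR-708-5p was higher at 1.31 [0.79 to 1.87] and miR-28a-5p lower at -1.96 [-2.19 to -1.73]. Of the 210 seeds among the 267 miRNAs, 32 were shared by at least 2 miRNAs.

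Among the families listed, miR-99/100 and miR-125 together had the largest drop in share of reads. They accompany let-7 in differentiating cells. All 6 measured members were lower, against 16.5% of all miRNAs, with a median of -2.22. The families took 0.928% of the reads with dox [0.911 to 0.945] and 5.67% in WT [5.63 to 5.71]. miR-99b-5p had 4166 CPM with dox and 32644 CPM in WT, a ratio of -2.97 [-3.01 to -2.93], or 7.84-fold lower. miR-125a-5p had 5662 CPM with dox and 21632 CPM in WT, a ratio of -1.93 [-1.97 to -1.89]. Encoded on other chromosomes, miR-125b-5p had 85.7 CPM with dox and 490.2 CPM in WT, a ratio of -2.51 [-2.84 to -2.20], and miR-125b-1-3p, with 13 reads with dox and 116 in WT, was at -3.16 [-4.16 to -2.38].

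let-7e-5p, which is encoded between miR-99b and miR-125a on chromosome 17, had 55.7 CPM with dox and 495.7 CPM in WT, a ratio of -3.14 [-3.55 to -2.78]. All 5 measured arms of this chromosome 17 cluster were lower, against 16.5% of all miRNAs, and together they were at -2.46 [-2.49 to -2.43]. The other 2 measured let-7 members were lower by less: let-7c-5p was at -1.14 [-1.34 to -0.95] and let-7a-5p at -1.60 [-2.11 to -1.13]. Only 3 of the 21 let-7 entries were measured, with a median of -1.60. At a minimum mean count of 10, 8 are measured and 4 of these are lower, with a median of -0.81. let-7e-5p and let-7c-5p have the same seed, and their ratios differed by -2.003 [-2.42 to -1.58]. miR-99b-3p, the other arm of the miR-99b hairpin, was at -1.87 [-2.18 to -1.58].

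**Figure D2:**
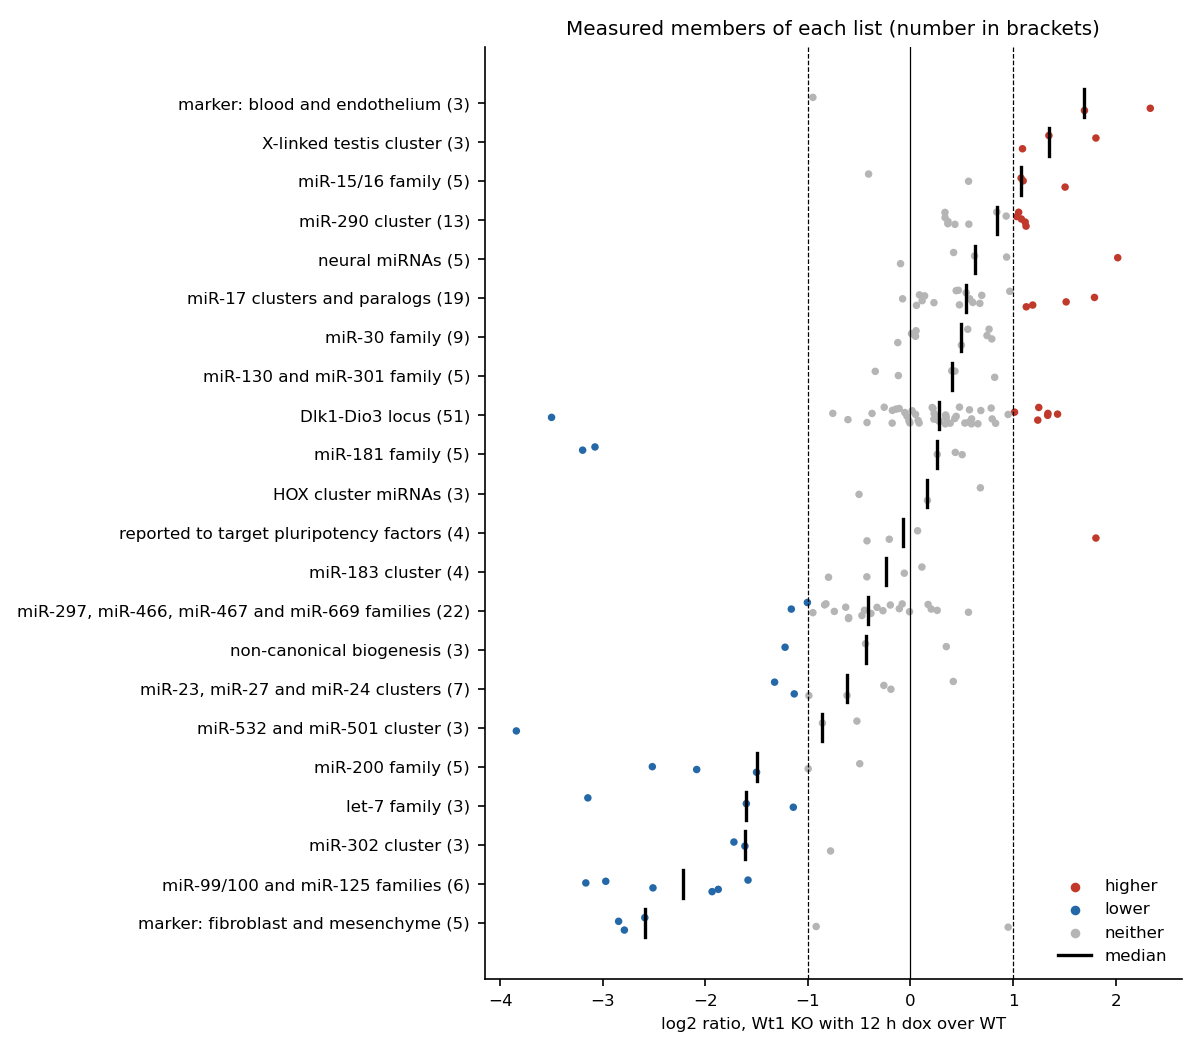
Each row is 1 of the lists with at least 3 measured members (number in brackets), each point a member's log2 ratio of Wt1 KO with 12 h dox over WT, and each black bar the list's median. The miR-99/100 and miR-125 families lie wholly at or below -1.58, the miR-290 cluster wholly above 0, and the miR-181 family splits into 2 members near -3 and 3 members above 0.

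Related clusters on different chromosomes had different ratios. miR-181a-5p, which is known from lymphoid and neural cells, had 659 CPM with dox and 5558 CPM in WT, a ratio of -3.08 [-3.19 to -2.97]. miR-181b-5p had 86.6 CPM with dox and 797 CPM in WT, a ratio of -3.20 [-3.52 to -2.90]. In contrast the chromosome 8 relatives were not called, with miR-181c-5p at 3173 CPM with dox and 2343 CPM in WT, a ratio of 0.44 [0.36 to 0.51], and miR-181d-5p at 0.26 [0.17 to 0.35]. miR-181b-5p and miR-181d-5p have the same base at 22 of 23 positions, and their ratios differed by -3.46 [-3.77 to -3.14].

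The miR-200 family, which keeps cells epithelial by repressing Zeb1 and Zeb2, showed the same kind of split in a milder form. All 5 measured members had negative ratios and 3 were called lower, where 16.5% of all miRNAs were. The members of the chromosome 4 cluster were the lower ones: miR-200b-3p had 857 CPM with dox and 4904 CPM in WT, a ratio of -2.52 [-2.62 to -2.42], the ratio of miR-200a-3p was -2.08 [-2.46 to -1.74], and that of miR-429-3p -1.50 [-1.74 to -1.27]. From chromosome 6, miR-200c-3p was at -0.997 [-1.23 to -0.77], just short of the size rule, and miR-141-3p at -0.49 [-0.93 to -0.07]. With TMM over the 2 libraries miR-200c-3p is called lower, at -1.01. The same holds as CPM of the total (-1.15) or without the miR-290 and miR-302 reads (-1.02), so that 4 of the 5 are then lower. The difference between miR-200b-3p and miR-200c-3p was -1.52 [-1.76 to -1.28], and that between miR-200a-3p and miR-141-3p was -1.59 [-2.13 to -1.05].

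The paired miR-23, miR-27 and miR-24 clusters are prominent in endothelium and muscle. Of their 7 measured members 2 were lower, miR-27b-3p and miR-24-3p, against 16.5% of all miRNAs. Scaled by TMM over the 2 libraries or as CPM, with or without the miR-290 and miR-302 reads, miR-23b-3p is called lower as well. On chromosome 13, miR-27b-3p was at -1.13 [-1.18 to -1.09] and miR-23b-3p at -0.99 [-1.34 to -0.65], while miR-27a-3p and miR-23a-3p of the chromosome 8 copy were at -0.19 [-0.40 to 0.02] and -0.26 [-0.46 to -0.06]. miR-24-3p, which both copies encode, was at -1.32 [-1.52 to -1.14].

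The miR-17 cluster and its paralogs are known to promote proliferation. Of the 19 measured members of these clusters and their paralogs 4 were higher and none lower, against 13.1% higher over all miRNAs, with a median of 0.54. The X-linked miR-106a to miR-363 cluster had the highest median, 1.05, with miR-18b-3p at 1.52 [1.22 to 1.83], a ratio of 1.19 for miR-20b-5p [0.96 to 1.43] and one of 1.13 for miR-106a-5p [0.90 to 1.37]. The fourth called member was miR-92a-1-5p, described with its hairpin below. As CPM of the total, miR-106a-5p is no longer called. The chromosome 14 cluster had a median of 0.50, with miR-17-5p at 0.47 [0.30 to 0.63] and miR-20a-5p at 0.70 [0.42 to 0.98]. The chromosome 5 cluster of miR-106b, miR-93 and miR-25 had a median of 0.10. miR-106a-5p and miR-17-5p have the same base at 22 of 23 positions and differed by 0.66 [0.38 to 0.94]. miR-20b-5p and miR-20a-5p match at 21 of 23 and differed by 0.50 [0.14 to 0.85]. How the authors' matching split reads between such near-identical miRNAs is not given in the sources used here, so their single values are uncertain.

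**Figure D3:**
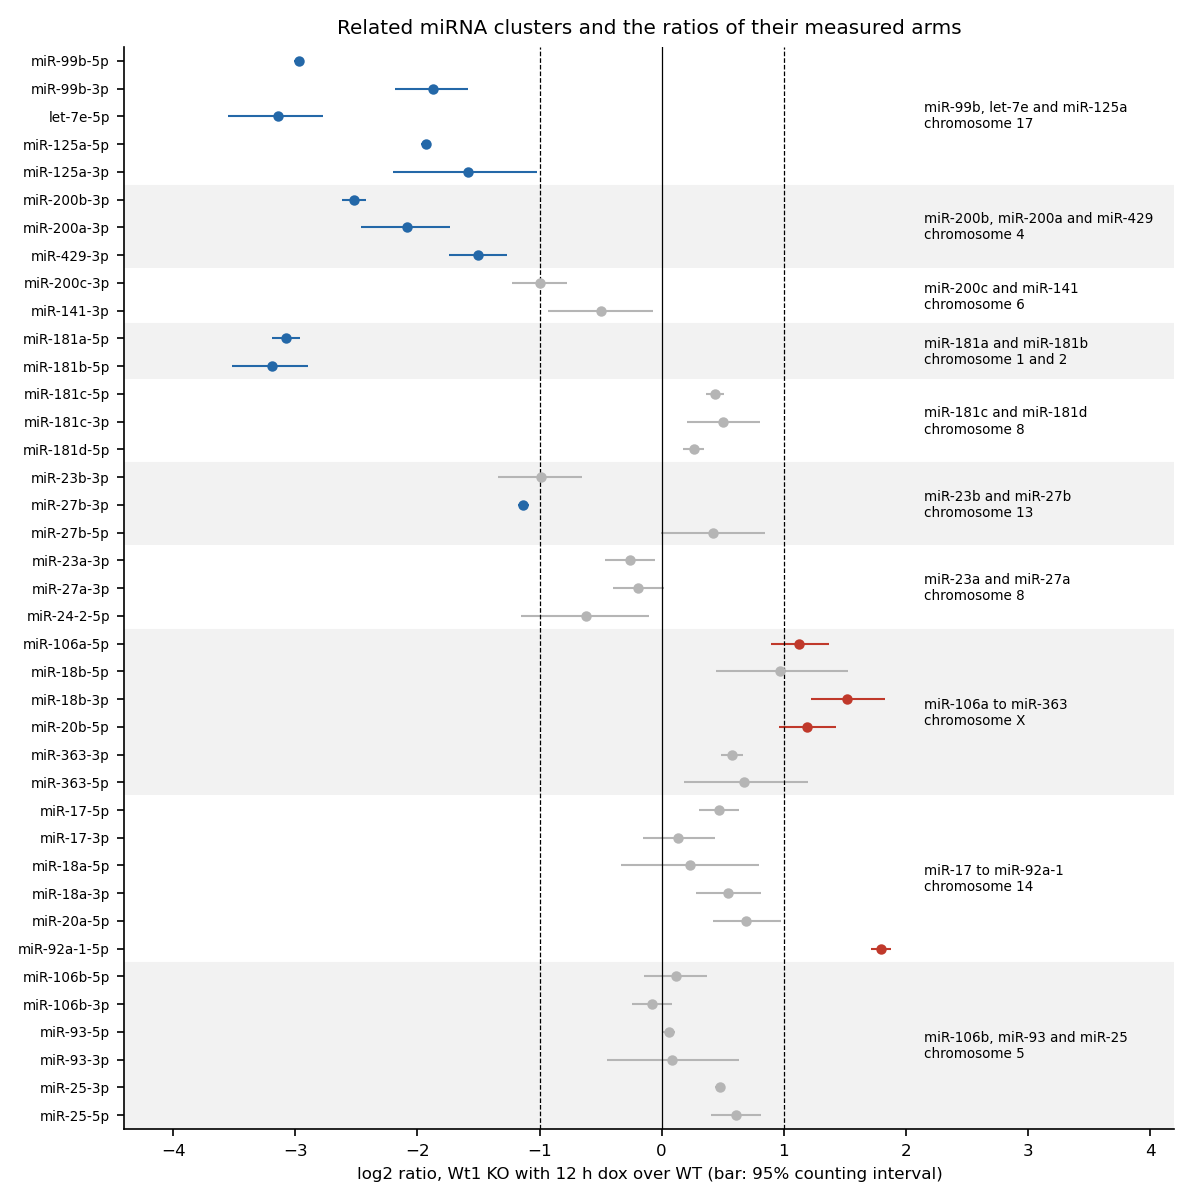
Log2 ratios of Wt1 KO with 12 h dox over WT for the measured arms of 10 related clusters, with 95% counting intervals and the RefSeq chromosomes, in red for higher and blue for lower. The miR-181a and miR-181b arms lie below -3 and those of miR-181c and miR-181d above 0, and the X-linked miR-106a to miR-363 cluster lies to the right of the chromosome 5 cluster.

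Of the miRNAs with the lowest ratios, several are known from differentiated cells. miR-224-5p, an X-linked miRNA, had 10 reads (8.83 CPM) with dox and 243 reads (223 CPM) in WT, the lowest ratio of all at -4.59 [-5.74 to -3.75]. miR-335-3p, from the imprinted Mest locus, had 16 reads (14.1 CPM) with dox and 243 reads (223 CPM) in WT, a ratio of -3.94 [-4.81 to -3.25]. miR-501-3p had 52 reads (45.9 CPM) with dox and 724 reads (664.6 CPM) in WT, a ratio of -3.84 [-4.29 to -3.45]. Its X-linked neighbours from the same cluster were much closer to WT, with miR-532-5p at -0.86 [-1.02 to -0.69] and miR-532-3p at -0.52 [-0.87 to -0.18].

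miR-21a-5p, which is abundant in fibroblasts and many tumours, had 399 CPM with dox and 2406 CPM in WT, a ratio of -2.59 [-2.74 to -2.45], and its other arm miR-21a-3p was at -2.79 [-3.13 to -2.48]. miR-31-5p had 216 CPM with dox and 1558 CPM in WT, a ratio of -2.84 [-3.05 to -2.65]. Both arms of miR-28a were lower, at -1.96 for miR-28a-5p and -2.50 [-2.77 to -2.24] for miR-28a-3p. miR-221-3p, which targets the cell cycle inhibitor Cdkn1b, was at -1.32 [-1.60 to -1.05], and miR-320-3p, which is made without Drosha, at -1.22 [-1.36 to -1.09]. Of the 11 HOX cluster entries, which sit within the body-axis gene clusters, 3 were measured. None of these was called, where 29.6% of all miRNAs were, while at a minimum mean count of 10 there is 1 lower call. These miRNAs were rare on both sides: miR-10a-5p had 77 reads with dox and 66 in WT.

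Among the higher miRNAs, miR-211-5p stood first. It lies in an intron of Trpm1, a gene of pigment cells, and had 185 reads (163 CPM) with dox and 15 reads (13.8 CPM) in WT, a ratio of 3.53 [2.81 to 4.44], or 11.5-fold higher. miR-1195 had 169.6 CPM with dox and 15.6 CPM in WT, a ratio of 3.40 [2.73 to 4.25]. miR-5126, whose 22 bases are all G or C, had 393 reads (347 CPM) with dox and 41 reads (37.6 CPM) in WT, a ratio of 3.19 [2.74 to 3.71]. The brain miRNA miR-124-3p, with 107 reads with dox and 25 in WT, was at 2.02 [1.40 to 2.73], while the other 4 measured members of the neural list did not pass the size rule.

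The abundant higher miRNAs were fewer. miR-150-5p, a miRNA of mature lymphocytes, had 4170.1 CPM with dox and 824 CPM in WT, a ratio of 2.34 [2.24 to 2.44]. miR-378a-3p, encoded in the metabolic regulator gene Ppargc1b, had 4288 CPM with dox and 1766 CPM in WT, a ratio of 1.28 [1.20 to 1.36], and the related miR-378d was at 1.15 [0.87 to 1.45]. Of the miR-15/16 family, which restrains the cell cycle, 3 of 5 measured members were higher (median 1.08), against 13.1% of all miRNAs. Among the 3 was the minor arm miR-15b-3p, with 73 reads with dox and 33 in WT, which lacks the family's seed AGCAGCA. The 4 members with this seed, of which 2 were higher, were together at 0.43 [0.38 to 0.48]. The most abundant, miR-16-5p, was not called, with 4701 CPM with dox and 3174 CPM in WT, a ratio of 0.57 [0.50 to 0.63]. miR-497a-5p was at 1.51 [1.29 to 1.74] and miR-15a-5p at 1.099 [0.73 to 1.49], whereas miR-15b-5p, with the same seed, was at -0.41 [-0.52 to -0.30]. As CPM of the total, miR-15a-5p and miR-15b-3p lose their calls, so that 1 of the 5 remains.

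All 3 measured entries of a testis-expressed cluster on the X chromosome were higher: miR-470-5p had 262 CPM with dox and 74.4 CPM in WT, a ratio of 1.81 [1.46 to 2.19], miR-871-3p was at 1.35 [1.08 to 1.63], and the entry shared by miR-465a-3p, miR-465b-3p and miR-465c-3p was at 1.09 [0.54 to 1.69]. As CPM of the total the miR-465 entry loses its call. Over the 19 measured miRNAs that RefSeq places on the X chromosome alone, 7 were higher and 4 lower (median 0.30), where 13.1% and 16.5% of all miRNAs were. The imprinted Dlk1-Dio3 locus had 51 measured arms, of which 6 passed on the higher side, near the 13.1% of all miRNAs, and 1 on the lower, against 16.5% of all (median 0.28). The higher ones were miR-665-3p at 1.43 [1.09 to 1.80], miR-136-3p, miR-376b-3p, miR-369-5p, miR-496a-3p and miR-673-3p, and the lower one was miR-409-5p. miR-673-3p, at 1.01, loses its call as CPM of the total (0.86) or without the miR-290 and miR-302 reads (0.996). It also does so with TMM over the 2 libraries (0.998) and with a prior count of 5 (0.999). In each of these settings 5 higher calls remain at the locus. Of the 22 measured members of the miR-297, miR-466, miR-467 and miR-669 families, many of which lie in an intron of Sfmbt2, none was higher and 2 were lower (median -0.42), against 13.1% and 16.5% of all miRNAs in the same order. One of the 2, miR-669o-5p at -1.005, is no longer called when scaled by the median of ratios or with prior counts of 2 or 5.

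The 2 arms of a hairpin mostly had ratios on the same side of 0. Of 45 hairpins with both arms measured, the arms had ratios of the same sign in 33, and they lay a median of 0.38 apart. In 40 of the 45 both arms are encoded at 1 locus only. In the others an arm is also encoded elsewhere, and miR-30c-5p is counted with both of its hairpins. In 6 hairpins the arms differed by 1 or more on the log2 scale with an interval excluding 0. The widest gap was at miR-409, where the 5p arm was at -3.50 [-4.19 to -2.92] and the 3p arm at 0.39 [0.35 to 0.43]. The 5p arm gave 0.197% of the hairpin's reads with dox [0.132 to 0.293] and 2.89% in WT [2.56 to 3.25]. The minor arm miR-92a-1-5p had 4884 CPM with dox and 1408 CPM in WT, a ratio of 1.79 [1.71 to 1.88], against 0.45 for miR-92a-3p. It made up 1.80% of the reads of the pair with dox [1.75 to 1.84] and 0.713% in WT [0.678 to 0.749]. miR-92a-3p is encoded on chromosome X as well, so this share is not that of 1 hairpin. miR-148a-5p, at 1.82 [1.50 to 2.16], was called higher, while miR-148a-3p was at 0.74 [0.62 to 0.86]. miR-27b-5p, at 0.42, stood apart from the lower miR-27b-3p, and miR-15b-3p was higher at 1.08 [0.48 to 1.73] while miR-15b-5p was not. The remaining hairpin of the 6 was miR-99b, described above. The arms of miR-409, the widest gap, and of miR-92a-1, the pair with the most reads of the 6, are:
miR-409-5p: aGGTTACCcgagcaactttgcat
miR-409-3p: gAATGTTGctcggtgaacccct
miR-92a-1-5p: aGGTTGGGatttgtcgcaatgct
miR-92a-3p: tATTGCACttgtcccggcctg

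**Figure D4:**
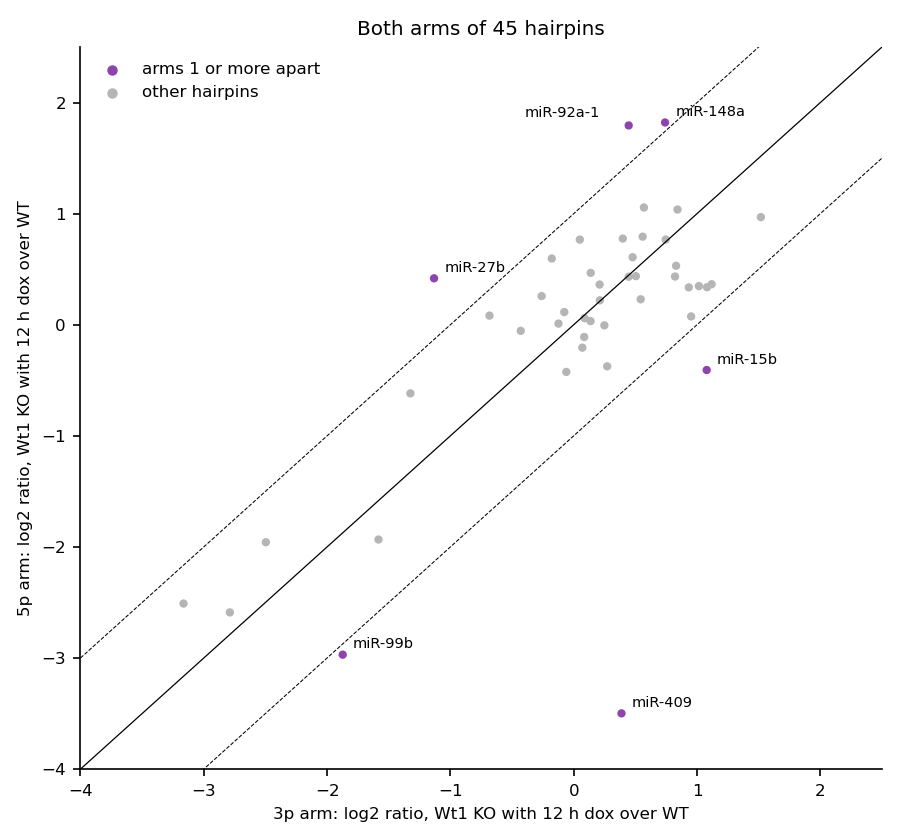
Log2 ratios of Wt1 KO with 12 h dox over WT for the 3p arm (x axis) and the 5p arm (y axis) of 45 hairpins, with the line of equal ratios and dashed lines 1 apart from it. The 6 labelled hairpins lie outside the dashed lines, and miR-409 lies farthest out, with its 5p arm at -3.50 and its 3p arm at 0.39.

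Single libraries of untreated Wt1 KO and of Wt1 KO after 24 h of dox were also set against the same WT library. The labels do not say whether the 3 Wt1 KO libraries share a clone. For the 35 higher miRNAs the median log2 ratio over WT was 1.08 in untreated KO and 1.31 after 12 h. For the 44 lower miRNAs it was -1.69 in untreated KO and -1.86 after 12 h. These miRNAs were chosen by their 12 h ratios, and what part dox had in them was not tested. miR-181a-5p had 364 CPM in untreated KO, 659 CPM after 12 h and 827 CPM after 24 h, against 5558 CPM in WT, so it was low in all 3 Wt1 KO libraries. miR-335-3p had 4.96 CPM in untreated KO, 14.1 CPM after 12 h and 8.23 CPM after 24 h, against 223 CPM in WT. miR-150-5p had 2937 CPM in untreated KO, 4170.1 CPM after 12 h and 3239 CPM after 24 h, against 824 CPM in WT, so it was high in all 3. Some miRNAs lay on different sides of WT in different Wt1 KO libraries, among them miR-92a-1-5p, miR-409-5p, miR-3963 and miR-290a-3p. miR-92a-1-5p had 107 CPM in untreated KO, 4884 CPM after 12 h and 787 CPM after 24 h, against 1408 CPM in WT, and only the 12 h library was above WT. miR-409-5p had 374 CPM in untreated KO, 21.2 CPM after 12 h and 25.9 CPM after 24 h, against 244 CPM in WT. miR-3963, called higher after 12 h, had a log2 ratio over WT of -1.15 after 24 h [-1.78 to -0.48]. miR-290a-3p, also called higher after 12 h, had a log2 ratio over WT of -0.89 in untreated KO [-1.18 to -0.60]. The others named here stayed on 1 side of WT at uneven distances. miR-501-3p had 529 CPM in untreated KO, 45.9 CPM after 12 h and 85.5 CPM after 24 h, against 664.6 CPM in WT. Both miR-409-5p and miR-501-3p were thus low after dox and not far from WT, or above it, without dox. miR-302d-3p had 102 CPM in untreated KO, 137.8 CPM after 12 h and 397 CPM after 24 h, against 455 CPM in WT. miR-5126 had 527 CPM in untreated KO, 347 CPM after 12 h and 61.4 CPM after 24 h, against 37.6 CPM in WT.

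**Figure D5:**
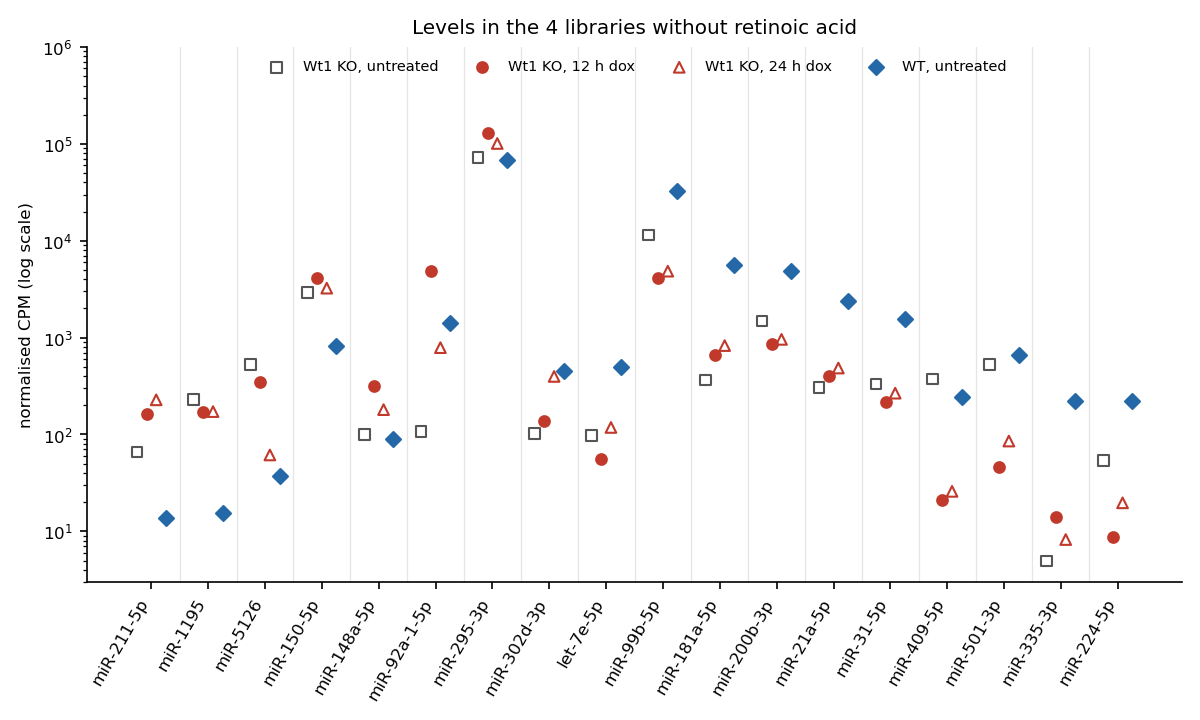
Normalised CPM (log scale) of 18 miRNAs in untreated Wt1 KO, Wt1 KO with 12 h and with 24 h of dox, and untreated WT, with 1 point per library. For miR-181a-5p, miR-21a-5p and miR-31-5p all 3 Wt1 KO libraries lie below WT, whereas miR-92a-1-5p is above WT at 12 h and below it in the other 2.

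Marker lists of other cell types held calls in different directions. Of the fibroblast and mesenchyme markers 3 of 5 measured members were lower, against 16.5% of all miRNAs. These were miR-31-5p and both arms of the miR-21a hairpin, while miR-199b-3p/199a-3p was at 0.95 [0.43 to 1.51]. Scaled to CPM of the total, miR-22-3p is lower as well (-1.07), so that 4 of the 5 are. miR-214-3p had 0 reads with dox and 1 in WT. The summed level of the list was 30974 CPM with dox and 61687 CPM in WT, mostly miR-22-3p, and 3 of its 13 entries were at 0 with dox and 2 in WT. Of the 3 measured blood and endothelium markers 2 were higher, miR-150-5p and miR-126a-3p (1.70 [1.05 to 2.44]), against 13.1% of all miRNAs. The other, miR-155-5p, was at -0.95 [-1.56 to -0.38], and as CPM of the total it is called lower, at -1.10. The sum was 4368 CPM with dox and 934 CPM in WT, mostly miR-150-5p, while 11 of 19 entries, miR-451a and miR-223-3p among them, were at 0 in each library and miR-142a-5p had 33 reads with dox and 2 in WT. Only 2 muscle and mesoderm markers were measured, and miR-143-3p was higher at 1.56 [1.34 to 1.78] and miR-133a-3p lower at -3.19 [-4.19 to -2.41]. Over all miRNAs 13.1% were higher and 16.5% lower. The sum was 641 CPM with dox and 333 CPM in WT, and 17 of 22 entries with dox and 18 in WT were at 0, including miR-1a-3p and miR-206-3p in both. The endoderm marker miR-375-3p was at 0.05 [-0.41 to 0.52], and miR-122-5p was at 0 in both. miR-6240, whose sequence is known to overlap rRNA, was at 0.77 [0.61 to 0.93]. What part such cells or RNA have in the differences was not tested.

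Of the 70 measured miRNAs in no list, 9 were higher and 15 lower, against 13.1% and 16.5% of all miRNAs in the same order. The higher ones included miR-1968-5p at 1.31, miR-1198-5p at 1.26 and miR-3963, which had 85.7 CPM with dox and 33.0 CPM in WT. Beside miR-224-5p and both arms of miR-28a, the lowest ratios among these were those of miR-1199-5p at -2.45 and miR-326-3p at -2.11. Several lists held no call among their measured members, where 29.6% of all miRNAs were called. The 9 of 12 miR-30 family entries that were measured had a median of 0.50, and the 5 of 9 of the miR-130 and miR-301 family 0.40. The median was -0.24 for the 4 of 6 of the miR-183 cluster and -0.11 for the 2 of 5 of the miR-26 family. At a minimum mean count of 10 the miR-30 family and the miR-183 cluster each gain 1 higher call. miR-205-5p, a miRNA of epithelial progenitors, was lower at -1.07, with 593 CPM with dox and 1247 CPM in WT.

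Base composition and level are given as a description. Across the 267 miRNAs, which share 2 libraries and are not independent replicates, the ratio had a Spearman rho of -0.09 with the GC content of the mature sequence and of -0.05 with the mean level. Just inside the minimum mean count, miR-129-5p had 60 reads with dox and 43 in WT, and miR-126a-3p had 82 and 24 in the same order. Just outside it, miR-19b-3p had 64 reads with dox and 35 in WT, and let-7f-5p had 41 and 55 in the same order. Further out, miR-504-5p, with 14 reads with dox and 80 in WT, was left out by the minimum although its ratio was -2.53 [-3.50 to -1.74].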

How the data were processed

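Per the labels' protocols, libraries were built by ligating adapters to small RNA and cutting the product bands from a gel. The deposited tables hold whole-number read counts per mature miRNA, split into unique matches and multi-matches per the file headers. Not given in the sources used here: the aligner, allowed mismatches, miRBase version and genome build. Unique-match counts were used.

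TMM factors were computed over all 6 libraries (edgeR 4.0.16, R 4.3.3) on entries with a mean of at least 50 reads over them. They were 0.922 for 12 h dox and 1.02 for WT. The 6 include WT and Wt1 KO cells with retinoic acid, whose libraries held 6106104 and 83626 unique reads. With TMM over the 2 compared libraries alone, 34 miRNAs were higher and 46 lower. Log2 ratios carry a prior count of 0.5, and 95% intervals are exact conditional binomial (Clopper-Pearson). A single library on each side leaves no residual degrees of freedom for edgeR, so no p-value or standard error is given. Differences between 2 miRNAs or arms have delta-method intervals on 4 counts.

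Of the 267 miRNAs, 220 matched RefSeq (GRCm38.p6) in name and sequence, and chromosomes are given for these only. Named miRNAs are the 15 higher and 15 lower ones whose interval bound lies farthest from 0, the 10 most abundant, up to 4 members of each list (every member of lists of at most 8), hairpins whose arms differ by 1 or more, and entries next to the minimum. Others (miR-378d, miR-708-5p, miR-28a-5p, miR-1968-5p, miR-1198-5p, miR-3963, miR-1199-5p, miR-326-3p, miR-205-5p, further members of larger lists, and the related pairs and clusters) were named after their values were seen. The comparison, the lists and the rules were chosen with earlier results of these data known. Alternatives were scaling by TMM over the 2 libraries, as CPM of the total with all reads or leaving out those of miR-290 and miR-302 or by the median of ratios (DESeq2 1.42.0), other minimum counts, other prior counts, and multi-matches added.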

Additional observations from a re-analysis of the deposited data

Results flagged for a closer look

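Reads matching several entries, which the comparison does not use, had a log2 ratio of 1 or more over WT after 12 h of dox, with an interval that leaves out 0, at 4 entries. miR-467c-3p and miR-467e-3p, which share these reads, had 16 with dox and 0 in WT. That is 5.13-fold higher against the 3 reads per library that a count of 0 allows, and the counting interval starts at a log2 ratio of 1.89. miR-299a-5p and miR-299b-5p, which also share theirs, had 27 with dox and 9 in WT.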

How the results depend on the processing

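The direction of all 79 called miRNAs held under each of the 10 alternatives in which they were measured, and 68 kept their call in all of these. The 11 that lost it at least once had ratios of at most 1.13 in size. The counts moved with the minimum mean count: 59 higher at a minimum of 10, 18 higher and 29 lower at 200, and 68 higher and 79 lower with no minimum, since other numbers of miRNAs are then measured. They stayed within 1.5 times under other scalings, prior counts and multi-matches, though as CPM of the total the share of higher calls fell to 32.5%, against 44.3% as reported. The list medians that changed sign were that of the miR-181 family, at -1.41 with a minimum of 200 and -0.24 with none, that of the miR-130 and miR-301 family, at -0.17 with no minimum, and that of the HOX clusters, at -0.17 with a minimum of 10 or none; the members measured differ there. No paired analysis was possible because each group has 1 library. With 1 library per side, counting error is the only error measured, and ratios of rare miRNAs have intervals over 1 wide.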
